A study of Homo sapiens with 4 samples.

Results

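The comparison of miR-891b with NC1 in A549 cells rested on 2 of the 4 arrays of the series, taken by their titles. A549 is a human lung cancer cell line with features of alveolar epithelium. The cells on the first array had been transfected with miR-891b and those on the second with NC1, a negative control RNA. Both transfections used the lipid reagent Dharmafect1, and both arrays lay on the same slide. The amount of RNA transfected and the time to extraction are not given in the sources used here. The remaining 2 arrays carried RNA of HCT116, a colorectal cancer line, after the same transfections, and are used only to show where A549 differed. Each array was hybridised with Cy3-labelled material made from 100 ng of total RNA. Each group was 1 array, so no p-value is given, a spread between cultures cannot be measured, and precision is limited by the number of arrays. A gene was taken as measured where its probe was well above background on both A549 arrays, which held for 21369 genes. Levels are log2 signals relative to the array's 75th percentile, changes are miR-891b minus NC1, and a gene was called where its 2 levels differed by 2-fold or more. This held for 9.61% of the measured genes.

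A mature microRNA is carried by an Argonaute protein and pairs with messenger RNAs mainly through the seed, the bases after its first one at the 5′ end. Pairing is known to lower translation and to shorten the life of the transcript, so direct targets tend to be lower after a microRNA is added, and genes that act downstream of them can move either way. The series title concerns PSAT1, an aminotransferase of serine synthesis, and how cancer cells release extracellular vesicles. The question here was which transcripts of A549 cells differed between the microRNA and the control.

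The mature sequences of miR-891b and of its relative miR-891a-5p are shown because the letters of the seed define the sites searched for. They are RefSeq sequences for GRCh38.p14, 5′ to 3′, with the seed, bases 2 to 8, in capitals. MIR891B lies at chrX:146001100-146001121 on the minus strand.
hsa-miR-891b: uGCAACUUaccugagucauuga
hsa-miR-891a-5p: uGCAACGAaccugagccacuga
Both are 22 bases long. Counted from 1 at the 5′ end of miR-891b, miR-891a-5p differs by U7G, U8A, U16C and U19C, so its seed differs. No other mature human microRNA in the table shared the seed of miR-891b.

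A transcript that can pair with the whole seed holds AAGTTGC. Following common usage, a site was called an 8mer where A followed these letters (AAGTTGCA) and a 7mer-m8 where no A followed within the probe. It was called a 7mer-A1 for AGTTGCA without the first base, and a 6mer for AGTTGC alone. These letters were searched for on the sense strand of the 60-base array probes, which cover only a short stretch of each transcript. The position of a site within its transcript was not analysed. Of 110 measured probes with an 8mer or 7mer-m8, 82 belonged to a gene with a current RefSeq symbol. The 30-base windows below are those of the probes with the lowest and the highest changes among them apart from DSCC1, with the site in capitals, the sense strand 5′ to 3′ and coordinates on hg19.
KNSTRN (chr15:40686277-40686306, plus strand): ctccttattaatttatgaacctgAAGTTGC
HJURP (chr2:234746029-234746058, minus strand): gaaattatgtgaataAAGTTGCtcaattag
H3C8 (chr6:26271410-26271439, minus strand): gactgagctgctgatccgcAAGTTGCcttt
SET (chr9:131457763-131457792, plus strand): taaaagtgtacAAGTTGCgttgttacaata
SNHG5 (within a probe at chr6:86386909-86387200 that spans a gap, minus strand): ttggaagttccaAAGTTGCAacgatttctg
MED21 (chr12:27182581-27182610, plus strand): gttagctgtaaAAGTTGCAgcaatttattg
GPKOW (chrX:48970485-48970514, minus strand): ccatatgagaAAGTTGCcttcagaaggtgg
MRS2 (chr6:24425663-24425692, plus strand): ctgataaaaggAAGTTGCtagtgttttata
LYPLAL1 (chr1:219386139-219386168, plus strand): cactgatatatAAGTTGCttccagtgtgag
TOR3A (chr1:179063261-179063290, plus strand): cctaAAGTTGCtcaaggctggatggtcccg
RFPL3S (chr22:32756204-32756233, minus strand): aaaaggaaaacAAGTTGCtcagcaagtgga
LAMB1 (chr7:107564411-107564440, minus strand): aaggatataagccagaAAGTTGCtgtgtat

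KNSTRN, which encodes a spindle and kinetochore adaptor, went from 4.53 with NC1 to 2.38 with miR-891b, a change of -2.15. Its site ends the probe, so whether A follows was not read. HJURP, the chaperone that loads the centromere histone CENPA, went from 5.47 to 3.48, a change of -1.99. SET, an inhibitor of the phosphatase PP2A and a histone chaperone, went from 4.23 to 2.37, and its 2 further probes, which hold no such site, had a mean change of -1.71. SNHG5, a snoRNA host gene, went from 7.95 to 6.38, and its 5 further probes had a mean of -1.49. MED21, a subunit of the Mediator complex, changed by -1.52. MRS2, the magnesium channel of the inner mitochondrial membrane, changed by -1.42 through the probe shown and by -0.98 through a probe with a 6mer. DSCC1, a subunit of an alternative clamp loader of DNA replication, had the lowest value of a probe with a site, 0.81 with NC1 and -2.53 with miR-891b. The highest value was that of LAMB1, a laminin chain, at 6.25 and 6.97, a change of 0.72, while the other probe of that gene changed by 0.099. The probe of H3C8, named HIST1H3G on the array, may also capture other histone genes of nearly the same sequence.

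Probes with a full seed match were lower on average in A549. The mean change of the 34 probes with an 8mer was -0.58 and 91.2% of them were below 0. The 76 with a 7mer-m8 had a mean of -0.47 with 77.6% below 0, the 66 with a 7mer-A1 had -0.25, and the 159 with a 6mer had -0.19. The 27401 probes without any of these had a mean of -0.061 with 55.5% below 0, and 55.7% of all 27736 measured probes were below 0. Of the 4 kinds of site, the mean was thus lowest for the 8mer and highest for the 6mer. The 2 kinds of 7mer, equal in length, lay apart between them. The share at least 2-fold lower was 7.58% for the 7mer-A1 and 10.7% for the 6mer. Of the 110 probes with an 8mer or 7mer-m8, 19 were at least 2-fold lower and 0 were at least 2-fold higher, where 5.56% of all measured probes were lower and 3.95% were higher. The 93 probes that held the same 7 letters on the opposite strand, GCAACTT, had a mean of 0.040.

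**Figure D1:**
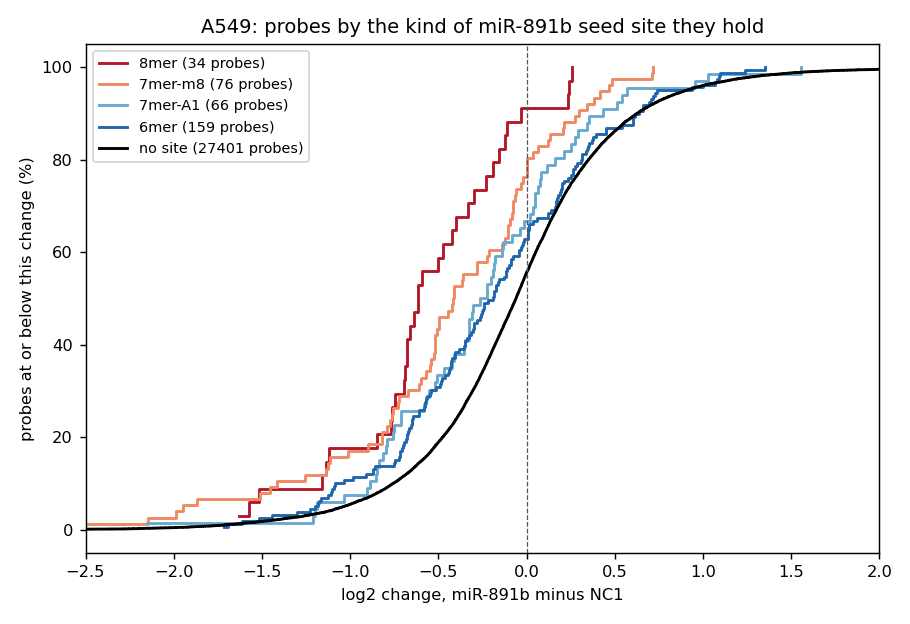
Cumulative share of A549 probes, in percent (vertical axis), at or below each log2 change of miR-891b minus NC1 (horizontal axis), by the kind of seed site in the probe. The curves for 34 probes with an 8mer and 76 with a 7mer-m8 lie to the left of the curve for 27401 probes without a site.

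The 7 letters complementary to the seed of miR-891b were compared with those of all other human microRNA seeds. Among 1629 seeds whose site was in at least 50 measured probes, that of miR-891b had the lowest mean change in A549. The next lowest, -0.32 for miR-4772-3p, has the site GTTGCAG, whose letters overlap those of the miR-891b site by GTTGC. The quartiles of the means over seeds were -0.095 and -0.021. In HCT116 the miR-891b seed had rank 113 of the same 1629, with a mean of -0.099, and the HCT116 mean of the 8mer probes was -0.037. Because several lower genes belong to the cell cycle, the probes of such genes were set aside, which left 107 probes with a mean of -0.45 against -0.044 for probes without a site. Among probes of like GC content, the mean change with a site minus that without was -0.59 at 15% to 40% GC, -0.35 at 41.7% to 45% and -0.31 at 46.7% or more. For 44 genes with probes both with and without a site, the mean change was -0.36 with a site and -0.23 without, and in 32 of them the probe with the site was the lower. The probes of PSAT1, PHGDH and PSPH hold none of the 4 kinds of site.

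The 3 enzymes that make serine from the glycolytic intermediate 3-phosphoglycerate were all lower with miR-891b. The first enzyme, PHGDH, had levels of 1.54 (NC1) and 0.047 (miR-891b), and its change of -1.50 was called. PSAT1, which transfers the amino group, had 5.76 and 4.17, a change of -1.58 (probe at chr9:80944778-80944837, hg19). PSPH, the phosphatase that completes the pathway, had 4.004 and 3.42, a change of -0.58 that did not reach 2-fold. In HCT116 the changes were -0.92, -0.81 and -0.27 in the same order, none past 2-fold. With normexp background correction and quantile normalization the change of PHGDH was -0.91, short of 2-fold, and that of PSAT1 stayed past it at every setting, between -1.58 and -1.35. Of 19 measured enzymes of folate and glycine metabolism, which use or make serine, only GLDC, the glycine decarboxylase, was called (1.98 to 0.81, a change of -1.17, or -0.82 with normexp). That is 5.26% of the list, near the 5.56% of all genes called lower. The cytosolic enzyme SHMT1 changed by -0.91 and the mitochondrial SHMT2 by -0.28.

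Over all measured genes, 1188 (5.56%) were lower by 2-fold or more after miR-891b and 865 (4.05%) higher by as much, with a median change of -0.057 and an SD over genes of 0.61. Changes of at least 4-fold numbered 100 lower and 112 higher, and those of at least 8-fold 6 lower and 19 higher. The median SD of the change between spots of the same probe was 0.071 over 287 probes printed at 5 or more spots, a spread that covers the spots only. The 2 probes of a gene differed by a median of 0.23 in their change over 3463 genes, with a 90th percentile of 0.785. Of 393 called genes with 2 or more probes, 191 had every probe past 2-fold in the same direction. HCT116 had 167 lower genes (0.872%) and 235 higher (1.23%) of 19143.

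The balance of lower and higher genes depended on signal. Genes were divided by mean signal into 10 bins of equal size. In the 8 bins of lower signal the median change lay between -0.054 and -0.021, and it was -0.13 in the ninth and -0.23 in the strongest. Among the 2137 genes with the strongest probes, 178 were at least 2-fold lower and 18 were at least 2-fold higher. Whether this comes from the RNA or from the labelling and scan was not tested. Set against the median of genes in the same bin, 1007 genes were lower and 979 higher.

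**Figure D2:**
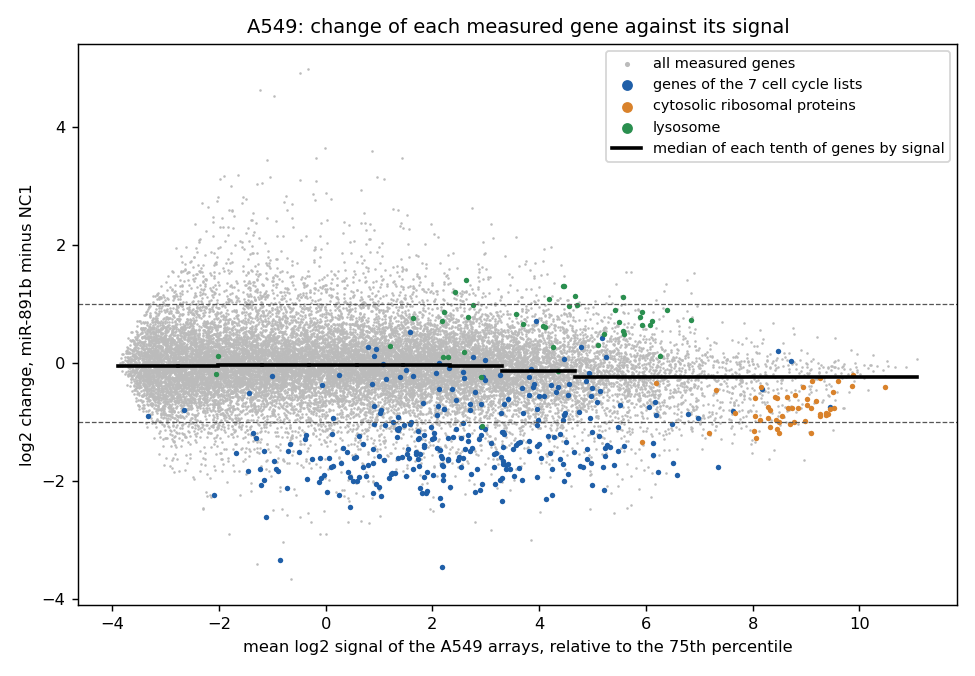
Log2 change of each of 21369 genes in A549, miR-891b minus NC1 (vertical axis), against its mean log2 signal on the 2 arrays (horizontal axis), with dashed lines at 2-fold. Genes of the cell cycle lists lie mostly below the lower line, lysosome genes mostly above 0 and ribosomal protein genes below 0 at the right, while the black median bars lie between -0.054 and -0.021 in the 8 bins of lower signal.

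Genes of cell division made up a large share of the lower genes. The kinetochore is the protein machine that ties a chromosome to the spindle. Of its 41 listed genes and those of the spindle checkpoint, all measured, 36 were at least 2-fold lower and 0 higher, with a median of -1.61, where 5.56% of all genes were lower. OIP5, which recruits new CENPA to centromeres, had the lowest change of any named protein-coding gene outside areas of stray signal, from 3.91 with NC1 to 0.46 with miR-891b, 10.96-fold. CENPA itself went from 2.53 to 0.99, a change of -1.54. The NDC80 complex binds microtubules, and its 4 subunits NDC80, NUF2, SPC24 and SPC25 changed by -1.89, -2.25, -1.36 and -2.17. Among kinases of the checkpoint, TTK changed by -1.72, BUB1 by -1.62 and BUB1B by -1.63. MAD1L1 (-0.22), ZW10 (-0.27), BUB3 (-0.55), PMF1 (-0.56) and CENPO (-0.99) were the 5 that did not reach 2-fold.

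Genes of mitotic entry, spindle assembly and exit behaved alike. Of 58 measured, 53 were at least 2-fold lower and 0 higher, where 5.56% of all genes were lower and 4.05% higher. The median was -1.62. CDK1, the kinase that drives entry into mitosis, went from 4.36 with NC1 to 2.56 with miR-891b, through a probe in an area of stray signal. Its other probe, outside such areas, changed by -0.90, short of 2-fold. Its partners CCNB1 (5.70 to 3.94), CCNB2 (6.07 to 4.32) and CCNA2 (2.17 to 0.30) were at least 2-fold lower. The transcription factors FOXM1 and MYBL2, which act on this set of genes, changed by -1.64 and -1.59. MKI67, the antigen used to score proliferating cells, went from 3.28 to 1.71. HMMR, a spindle-binding protein, had the lowest change of the list, -2.33. FZR1, an activator of the anaphase-promoting complex that works in G1, was the only gene of the list above 0, at 0.25.

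DNA replication genes were lower in 46 of 58, with none higher, where 5.56% of all genes were lower and 4.05% higher. The median was -1.30. The 6 subunits of the MCM2 to MCM7 helicase ranged from -2.40 for MCM2 (3.37 to 0.98) to -1.23 for MCM3. All 4 GINS subunits were called, from -2.14 for GINS2 to -1.48 for GINS3. PCNA, the sliding clamp of DNA polymerases, went from 6.29 to 4.89. The subunits ORC2, ORC3 and ORC4 of the origin recognition complex changed by -0.019, 0.059 and -0.17. ORC1, whose level is known to vary over the cell cycle, changed by -1.49, or -0.53 at its smallest over the processing alternatives. The RPA proteins that coat single-stranded DNA differed among themselves, with -1.35 for RPA3, -0.54 for RPA1 and -0.41 for RPA2.

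Recombination and Fanconi anaemia genes, which repair breaks and crosslinks, were at least 2-fold lower in 22 of 40 measured and higher in 0. Of all genes, 5.56% were lower and 4.05% higher. The list median was -1.23. FANCD2, the central substrate of the Fanconi pathway, had 2 probes, at -2.23 and -1.91. BRCA1 went from 2.46 with NC1 to 0.55 with miR-891b. The end-joining genes XRCC5 (-0.55) and XRCC6 (-0.43) did not reach 2-fold. RAD51D (0.28) and XRCC3 (0.042) were the members above 0.

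Histone genes, most of which are transcribed in S phase, were at least 2-fold lower in 30 of 49 and higher in 0. Of all genes, 5.56% were lower and 4.05% higher. The list median was -1.26. The linker histone gene H1-5 went from 1.67 to -0.76. H3-3A, a replacement histone made throughout the cycle, changed by 0.21. Histone probes can capture several near-identical genes, so single members are uncertain. A run was counted where 3 or more neighbouring measured genes on a chromosome were all past 2-fold in the same direction. Of 17 such runs, 13 lower and 4 higher, 7 held histone genes, on chromosomes 6, 1 and 12. The longest held H4C4, H3C4, H2AC7, H4C5 and H2AC8, between -1.78 and -1.02, at chr6:26188952-26217613 (hg19).

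Nucleotide synthesis genes were at least 2-fold lower in 6 of 22 and higher in 0, where 5.56% of all genes were lower and 4.05% higher. The median was -0.80. TYMS, which makes thymidylate, went from 6.27 to 4.55 and TK1, the S-phase thymidine kinase, from 8.22 to 6.47. RRM2, a subunit of ribonucleotide reductase, went from 1.78 to 0.21, while RRM1, which pairs with it, changed by -0.97. PPAT, the first enzyme of purine synthesis, changed by 0.0082. The 7 lists from kinetochore to nucleotide synthesis, with the G1 list, held 295 of the 15393 measured genes with a current symbol. Of these 295, 204 were at least 2-fold lower, 22.9% of the 892 lower genes with a current symbol.

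Regulators of the G1 phase were more divided. Of 28 measured, 12 were at least 2-fold lower and 0 higher, with a median of -0.47. The E2F activators E2F1 (2.05 to -0.042) and E2F2 (2.80 to 1.36) and the repressors E2F7 (2.82 to 0.99) and E2F8 (0.19 to -2.42) were lower, those of E2F1 and E2F2 through probes in areas of stray signal. E2F4 changed by 0.12, E2F5 by 0.53 and E2F6 by 0.72. CCND1, the cyclin that starts G1 progression, went from 2.38 to 0.77, whereas its kinases CDK4 and CDK6 changed by 0.11 and 0.071. MYC changed by -0.089. The CDK inhibitor CDKN1A, also called p21, went from -0.82 to -1.10, a change of -0.27. CDKN1C, also called p57, was the only inhibitor of 7 at least 2-fold higher, from 0.50 to 1.81. Of 32 measured p53 targets, GDF15 (5.71 to 7.05), a secreted stress factor, and TP53INP1 (1.12 to 2.60) were higher, and the median was 0.12. DDB2, at -1.10, was the only one lower, 3.1% of the list. Of all genes, 5.56% were lower and 4.05% higher.

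In HCT116 the same lists stayed near 0, with medians of 0.12 for the kinetochore list, 0.061 for mitosis, -0.055 for replication, 0.050 for recombination and -0.040 for histones. Of 18114 genes measured in both lines, 1054 were called lower in A549, and 16 of these were called lower in HCT116 too. That is 1.52% of the A549 genes and 12.5% of the 128 HCT116 genes, where 0.707% of all 18114 were lower in HCT116. Of 606 called higher in A549, 31 were called higher in HCT116, 5.12% of these and 16.3% of the 190 HCT116 genes, where 1.05% of all were higher in HCT116. The HCT116 median was -0.14 over the genes lower in A549 and 0.037 over those higher, against -0.041 over all. On the HCT116 miR-891b array 10.5% of gene spots lay in areas of stray signal and 11 of 308 negative control spots were well above background, and the part of this in the HCT116 values was not tested. The difference between the lines had 1 array in each group and was not tested.

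**Figure D3:**
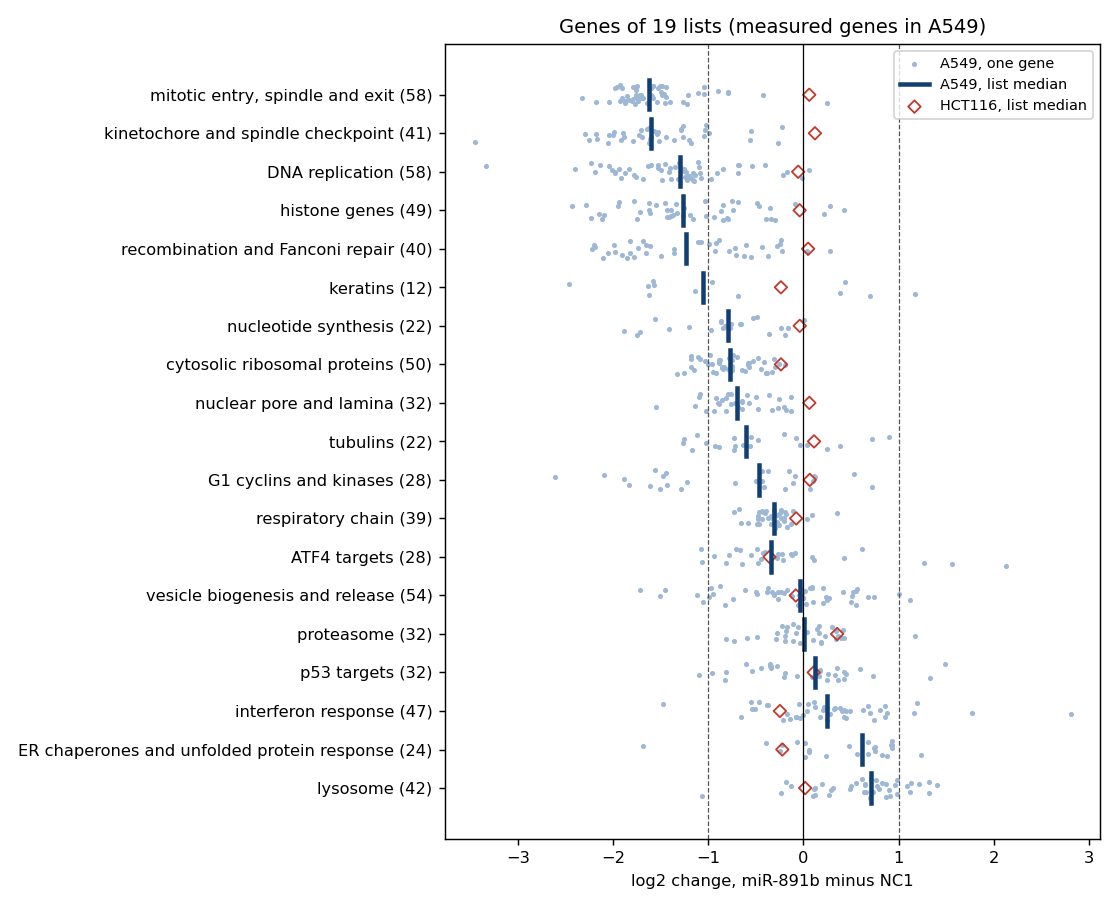
Log2 change, miR-891b minus NC1 (horizontal axis), of each measured A549 gene (points) in 19 gene lists, with the list median in A549 (bars) and in HCT116 (diamonds); the number after each name counts the A549 genes. The A549 bars run from -1.62 for mitosis to 0.71 for the lysosome, while the HCT116 diamonds of the cell cycle lists lie near 0.

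The promoters of the lower genes were read for letters known from cell cycle genes. CCAAT boxes and the element TTTGAA are known from promoters of G2 and mitotic genes, and TTCCCGCC and TTTCCCGC from genes bound by E2F factors. The RefSeq promoters of GRCh38.p14 run from 250 bases before to 50 bases after the start, with 1 promoter used per gene, and each motif was searched on both strands. TTTGAA was present in 21.8% of 642 promoters of lower genes, 9.18% of 9930 promoters of genes in between, 13.6% of 521 promoters of higher genes and 15.4% of all 27305. CCAAT was present in 47.8%, 36.0%, 31.3% and 35.7%, and both together in 13.9%, 3.56%, 4.798% and 6.08%. TTCCCGCC was present in 9.19%, 4.68%, 4.61% and 3.18%, and TTTCCCGC, whose letters can overlap it, in 4.83%, 2.33%, 1.92% and 1.66%. TGACTCA, the site of AP-1 factors, was most frequent among higher genes, at 7.10% against 2.49% of lower genes and 4.92% of all. Among 471 lower genes outside the cell cycle lists, TTTGAA was in 16.8% and CCAAT in 42.0%. A match is a description of letters and shows no binding.

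The promoters of HMMR, SPC25 and HJURP are shown as lower mitotic genes that hold both motifs, 5′ to 3′ on the strand of the gene, with CCAAT (or ATTGG on the opposite strand) and TTTGAA (or TTCAAA) in capitals.
HMMR (chr5:163460382-163460681, plus strand): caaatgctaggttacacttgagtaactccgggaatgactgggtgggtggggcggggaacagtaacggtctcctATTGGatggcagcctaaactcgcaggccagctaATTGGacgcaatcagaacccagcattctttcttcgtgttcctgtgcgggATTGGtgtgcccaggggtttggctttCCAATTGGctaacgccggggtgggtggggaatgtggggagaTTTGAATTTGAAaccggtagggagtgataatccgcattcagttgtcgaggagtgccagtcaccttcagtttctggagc
SPC25 (chr2:168890381-168890680, minus strand): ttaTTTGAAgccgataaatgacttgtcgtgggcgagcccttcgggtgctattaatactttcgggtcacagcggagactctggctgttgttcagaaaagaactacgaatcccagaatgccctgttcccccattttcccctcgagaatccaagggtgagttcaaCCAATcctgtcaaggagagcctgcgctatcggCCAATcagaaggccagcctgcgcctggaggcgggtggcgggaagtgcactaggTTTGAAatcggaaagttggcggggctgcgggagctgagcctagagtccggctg
HJURP (chr2:233854486-233854785, minus strand): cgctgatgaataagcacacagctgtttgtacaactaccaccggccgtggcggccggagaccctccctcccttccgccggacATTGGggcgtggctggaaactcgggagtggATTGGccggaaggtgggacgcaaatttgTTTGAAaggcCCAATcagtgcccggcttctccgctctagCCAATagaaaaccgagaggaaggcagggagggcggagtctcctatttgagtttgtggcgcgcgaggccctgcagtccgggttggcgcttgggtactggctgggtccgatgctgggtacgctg
The HMMR window holds 5 CCAAT and 2 TTTGAA, that of SPC25 2 and 2, and that of HJURP 4 and 1. Their A549 changes were -2.33, -2.17 and -1.99.

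Several lists with strong signal had medians below 0 that did not reach 2-fold. Of all genes, 5.56% were lower by 2-fold or more and 4.05% higher. Tubulins and their partners had a median of -0.60 with 5 of 22 at least 2-fold lower, among them TUBB (5.66 to 4.40) and TUBA1B (9.36 to 8.34), while TUBB2A changed by 0.90. Nuclear pore and lamina genes had a median of -0.70, with 5 of 32 lower and LMNB1, a lamin of the nuclear envelope, at -1.55. All 50 measured genes of cytosolic ribosomal proteins were below 0, with a median of -0.77 and 11 at least 2-fold lower, from -1.33 for RPS3 to -0.20 for RPS19. Their HCT116 median was -0.24, and with quantile normalization the A549 median was -0.40. Of 39 respiratory chain genes none was called, and the median was -0.31, or -0.031 with quantile normalization. Proteasome genes, of similar signal, had a median of 0.0022 with 1 of 32 at least 2-fold higher. GAPDH, a glycolytic enzyme often used as a reference gene, went from 9.05 to 7.995, a change of -1.05, and PGK1 from 7.75 to 6.72, while PKM changed by 0.18. At their smallest over the processing alternatives, the changes of GAPDH (-0.58), PGK1 (-0.61), TUBB (-0.90) and TUBA1B (-0.58) were short of 2-fold.

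Keratins, the intermediate filaments of epithelia, did not all move together. Of 12 measured, 6 (50%) were at least 2-fold lower and 1 higher, where 5.56% of all genes were lower and 4.05% higher. The median was -1.05. KRT7 went from 9.11 to 7.49 and KRT18 from 10.1 to 8.94, while KRT19 changed by 0.39 and KRT20 by 1.18. At their smallest over the processing alternatives, the changes of KRT18 (-0.86) and KRT20 (0.33) were short of 2-fold. The neighbours KRT7, KRT81, KRT86 and KRT83 on chromosome 12 formed a run, between -2.47 and -1.58, of which KRT81, KRT83 and KRT86 are near-identical copies and uncertain as single genes. Without a filter on dim probes, the median over the 20 keratins on the array was 0.0053.

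The lysosome is the acidic compartment that degrades proteins, lipids and sugar chains. Of 42 measured genes of it, 7 were at least 2-fold higher, 1 was lower and 4 were below 0, with a median of 0.71, where 4.05% of all genes were higher. SGSH (1.92 to 3.33), NAGLU (3.80 to 5.12) and NEU1 (3.78 to 5.10) act in the breakdown of glycans and glycosaminoglycans. The proteases CTSD (3.65 to 4.74) and CTSA (5.02 to 6.13, with a second probe at 0.58) were also past 2-fold. ATP6V1C1, a subunit of the proton pump, was the gene at least 2-fold lower, at -1.07, and ATP6AP1 of the same pump changed by 0.87. The HCT116 median of the list was 0.018.

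ER chaperones and genes of the unfolded protein response had a median of 0.62 over 24 genes, with HSPA5, also called BiP, at least 2-fold higher (2.97 to 4.20) and CANX, the lectin chaperone calnexin, lower (3.51 to 1.83). HERPUD1, PDIA4 and CRELD2 each changed by 0.93, below 2-fold, and XBP1 by 0.020. Of 28 measured targets of the stress factor ATF4, NUPR1 (2.51 to 4.64), DDIT3 (-0.54 to 1.02) and ATF3 (1.199 to 2.46) were higher, whereas JDP2 and YARS1 were lower, each at -1.07, and the median was -0.34. JDP2 and YARS1 are 7.14% of the list, where 5.56% of all genes were lower and 4.05% higher. At their smallest over the processing alternatives, the changes of ATF3 (0.66), JDP2 (-0.75) and YARS1 (-0.67) were short of 2-fold. ASNS, the asparagine synthetase, changed by -0.71. NUPR1 changed in HCT116 by -1.86, the opposite direction. PCK2, whose HCT116 change was -1.44, changed by -0.94.

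Genes of vesicle biogenesis and release, the process named in the series title, showed no common direction. Of 54 measured, 5 (9.26%) were at least 2-fold lower and 2 higher, where 5.56% of all genes were lower and 4.05% higher. The median was -0.033. VPS37B, a subunit of ESCRT-I, went from 2.38 to 0.66, VAMP7, a fusion protein of late endosomes and lysosomes, from 3.22 to 1.72 and FLOT1, a scaffold of membrane rafts, from 3.92 to 2.47. PDCD6IP, also called ALIX, changed by -1.12 and the GTPase RAB31 by -1.06. The probes of FLOT1 and RAB31 lie in areas of stray signal. EXPH5 and SYTL2, both effectors of RAB27, were higher at 1.01 and 1.12. Over the processing alternatives the smallest changes of EXPH5 (0.56), SYTL2 (0.75), PDCD6IP (-0.65) and RAB31 (-0.98) were short of 2-fold. VPS37B, VAMP7 and FLOT1 stayed past it. The GTPases RAB27A and RAB27B changed by 0.086 and 0.27 and the vesicle tetraspanins CD9, CD63 and CD81 by 0.031, 0.41 and 0.50.

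Of 33 listed secreted factors that act on osteoclasts, the bone-resorbing cells, 20 were measured. Of these, 4 were at least 2-fold higher and 1 (5%) was lower, where 4.05% of all genes were higher and 5.56% lower. TNFRSF11B, or osteoprotegerin, a decoy receptor that restrains osteoclast formation, went from -3.05 to -0.47. IL1B (-2.92 to -1.22), PTHLH (1.08 to 2.46) and CSF1 (-1.01 to 0.32), which are known to favour osteoclasts, were higher too. IL11 went from 2.16 to -0.54, a change of -2.70. TNFSF11, or RANKL, the main inducer of osteoclasts, was not well above background on both arrays. With normexp correction the changes of TNFRSF11B (0.73) and IL1B (0.38) were short of 2-fold, as was that of CSF1 as a mean over its probes (0.615), and that of PTHLH ranged from 1.21 to 1.43 over the settings.

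**Figure D4:**
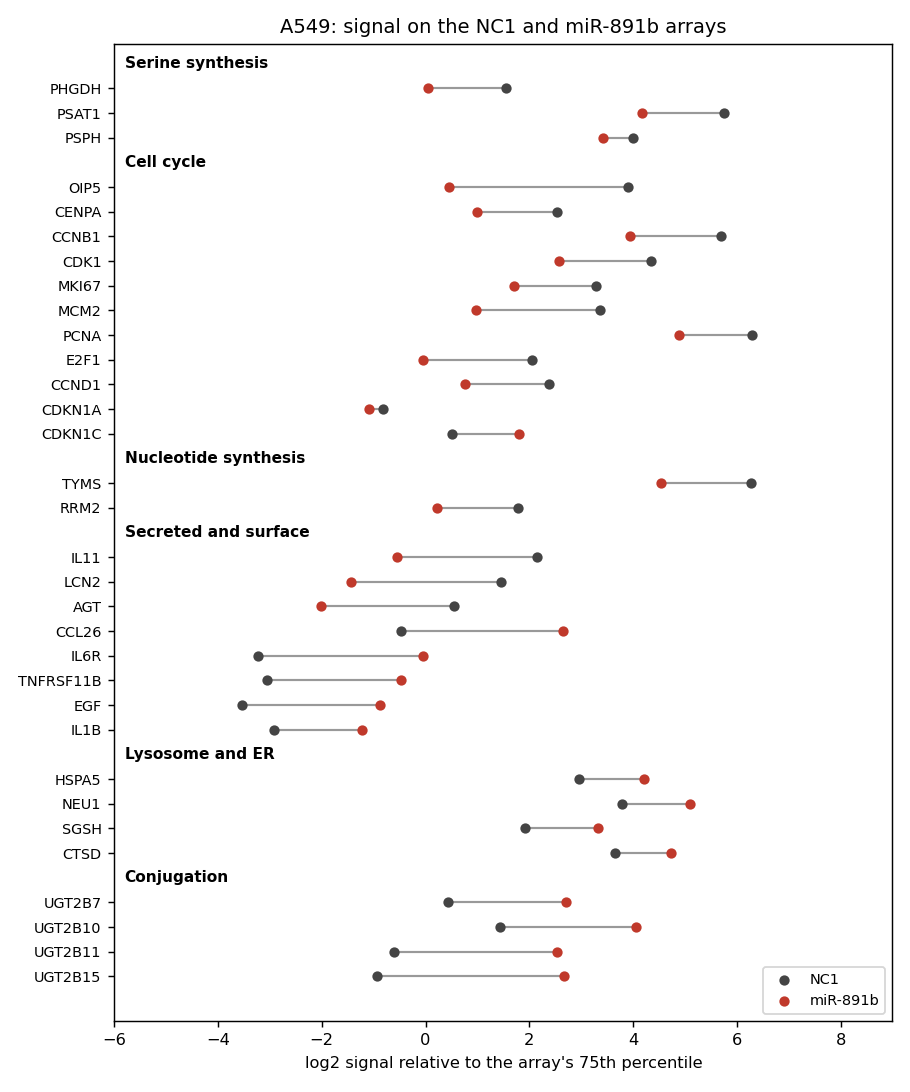
Log2 signal relative to the array's 75th percentile (horizontal axis) on the A549 NC1 array (grey) and the miR-891b array (red) for 32 genes in 6 groups, 1 array per point and no error bars. PHGDH, PSAT1 and the cell cycle genes except CDKN1C lie lower with miR-891b, and the lysosome and UGT2B genes lie higher.

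Other secreted and surface proteins moved in both directions. CCL26, an eosinophil-attracting chemokine, went from -0.47 with NC1 to 2.65 with miR-891b, a change of 3.12, and changed by 2.65 in HCT116. IL6R, the receptor of interleukin 6, went from -3.24 to -0.041 and changed by 1.69 in HCT116. With other processing the A549 change of IL6R ranged from 1.01 to 3.22 and that of CCL26 from 2.33 to 3.17. EGF, the ligand of the EGF receptor, went from -3.54 to -0.88, while the receptors EGFR and ERBB3 changed by -0.97 and -1.26 and FGFR1 by -1.42. Over the processing alternatives the smallest changes of EGF (0.63), ERBB3 (-0.35) and FGFR1 (-0.72) were short of 2-fold. LCN2, an iron-scavenging protein of airway epithelium, went from 1.45 to -1.44, and SLPI, a protease inhibitor of airway secretions, from 3.35 to 1.75. OSMR changed by 2.38 through a probe in an area of stray signal, and by -0.92 through another probe outside it, so no direction is given for it.

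Plasma proteins usually made by the liver, some of which A549 cells also express, were divided. Of 30 measured, 6 (20%) were at least 2-fold lower and 5 higher, where 5.56% of all genes were lower and 4.05% higher. AGT, the precursor of angiotensin, went from 0.56 to -2.01 through a probe in an area of stray signal, and C3, the central complement component, from 3.67 to 2.45. The neighbours SERPINA6, SERPINA1 and SERPINA3 on chromosome 14 formed a run between -1.75 and -1.27. The complement proteases C1S (2.89 to 4.61) and C1R (3.36 to 4.65), ALB (-2.45 to -0.28) and the fibrinogen chain FGB (3.98 to 5.05) were higher, and its partners FGA and FGG changed by 0.65 and 0.46. The smallest changes of ALB (0.61), SERPINA1 (-0.49) and SERPINA3 (-0.82) over the processing alternatives were short of 2-fold.

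Genes of the UGT2B family, which attach glucuronic acid to steroids and drugs, were higher with miR-891b. Of the 21 measured genes of cytochrome P450, UGT and sulfotransferase enzymes, 6 were at least 2-fold higher and 3 lower, with a median of 0.18. The lower ones are 14.3% of the list, where 5.56% of all genes were lower and 4.05% higher. UGT2B15 went from -0.94 to 2.66, 12.1-fold, UGT2B11 from -0.61 to 2.54, UGT2B10 from 1.43 to 4.06 and UGT2B7 from 0.43 to 2.71. They are neighbours on chromosome 4, their sequences are close, and a probe of one may capture another. UGT2B4 was well above background with miR-891b only and at least 8.86-fold higher. The sulfotransferases SULT2B1 and SULT1C2 changed by -2.15 and 1.39, and NNMT, which methylates nicotinamide, went from 6.91 to 5.15. The smallest change of SULT1C2 over the processing alternatives was 0.44, short of 2-fold.

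Of 47 measured interferon response genes, 4 were at least 2-fold higher and 1 lower, where 4.05% of all genes were higher and 5.56% lower. Their median was 0.24. With normexp correction the 4 higher ones were short of 2-fold, between 0.54 for IFIT3 and 0.97 for IFI44. IFI44 went from -2.95 to -0.14, MX1, an antiviral GTPase, from -1.79 to -0.027 and IFIT3 from -1.29 to -0.090. IFIT1 changed by -0.39 and ISG15 by -0.045. UBD, a ubiquitin-like protein induced by cytokines, went from -1.92 to 1.57. Members of the microRNA machinery had a median of 0.0074 over 32 genes, with AGO2, the slicing Argonaute, at 0.14. PAN2, a deadenylase subunit, was the one called, at -1.16, or -0.62 at its smallest over the processing alternatives.

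Genes with every probe past 2-fold were measured more than once on the same arrays. There were 128 lower (2.86% of 4472 genes with 2 or more probes) and 63 higher (1.41%). FAM107B had 3 probes between -2.17 and -1.90, and CORO2A, an actin-binding coronin, had 2 at -2.14. ESCO2, which acetylates cohesin in S phase, had 2 between -2.35 and -2.24. SELENOP, the plasma selenium carrier, had 2 probes between 2.45 and 2.51, GPX3, a secreted glutathione peroxidase, had 2 between 2.36 and 2.42, and KLB, the coreceptor of FGF19 and FGF21, had 2 at 2.41. The smallest change of KLB over the processing alternatives was 0.98, short of 2-fold. NEAT1, the long noncoding RNA of paraspeckles, had 3 probes between 1.42 and 2.10, with an HCT116 mean of 1.14.

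Strong probes with wide changes included HMGB1, a chromatin protein, at 6.86 with NC1 and 4.42 with miR-891b. PCLAF, named KIAA0101 on the array, a partner of PCNA, went from 6.45 to 4.26. DAZAP2 went from 6.68 to 4.15 by its stronger probe, a change of -2.53, while its other probe changed by -0.87. SP100, a protein of PML nuclear bodies, had -2.27 for the strongest of 3 probes and 0.20 and 0.42 for the others, so its probes disagree. SQSTM1, the autophagy receptor p62, went from 6.26 to 7.45 and VAT1 from 4.77 to 6.12, with 2 probes at 1.34 and 1.33.

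The remaining genes with the lowest and highest changes outside areas of stray signal were mostly measured by 1 probe. NEB, the giant muscle filament protein nebulin, went from 0.41 to -2.98 and MNS1, a protein of cilia and meiosis, from 1.33 to -1.56. ANXA8L1, an annexin, went from 4.51 to 1.68 and FAM72D from 2.31 to -0.29, both members of families with near-identical copies. FAM43B went from -0.30 to 3.18, 11.2-fold, and its neighbours CDA, the cytidine deaminase, and PINK1, the mitochondrial kinase, changed by 1.61 and 1.33, the last in an area of stray signal. DEPP1, named C10orf10 on the array, went from -3.54 to -0.42, against -1.38 in HCT116. Its smallest A549 change over the processing alternatives was 0.82, short of 2-fold. TENT5C, named FAM46C, a poly(A) polymerase, went from -2.72 to 0.33.

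Some genes were well above background on 1 of the 2 arrays only, which gives a bound. With NC1 only there were 1009. Of these, 147 exceeded by 2-fold or more both their own miR-891b signal and the lowest signal well above background on that array. With miR-891b only there were 1084, of which 294 exceeded their own NC1 signal and the limit of the NC1 array likewise, 215 of them outside areas of stray signal. Those areas held 1.83% of gene spots on the miR-891b array and 0.0213% on the NC1 array. SCG2, a granin of secretory granules, was at least 31.2-fold higher with miR-891b and PLA1A, a phospholipase, at least 13.4-fold. CCKAR, a cholecystokinin receptor, was at least 21.7-fold higher with NC1 and MYL3, a muscle myosin light chain, at least 8.71-fold.

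The labelled line was checked against its markers. Of 12 listed markers 11 were on the array, and all 11 were well above background on both arrays, among them AKR1B10 (9.88 with NC1, 9.69 with miR-891b) and ALDH1A1 (9.48 and 9.18). KRT81 (-1.64), CYP24A1 (-1.46) and ALDH3A1 (-1.17, in an area of stray signal) were the markers at least 2-fold lower, and FGB the one at least 2-fold higher. Of 12 listed markers of HCT116, 10 were well above background on both A549 arrays too. The summed linear level of the 12, relative to the 75th percentile, was 51.5 and 40.8, against 3352 and 2425 for the A549 markers. These sums are over different genes and were not set beside the HCT116 arrays, so they cannot identify the line. Of 12 fibroblast markers, 5 were well above background with NC1 and 7 with miR-891b, and their summed level was 4.92 and 11.6. LUM, a matrix proteoglycan, made up most of the rise (1.03 to 3.17), whereas COL1A2, COL3A1, DCN, FAP and POSTN were not well above background on either array. Of 7 leukocyte markers on the array, 4 were well above background on both, with summed levels of 14.1 and 13.7. CD3E was not well above background on either array.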

How the data were processed

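Total RNA was labelled with Cy3 and hybridised to Agilent 1-colour arrays, per the labels' protocols, with 1 array in each of 4 groups taken from the sample titles. Spots were read from the scans with Agilent Feature Extraction 11.5.1.1, per the file headers. It subtracts a background and removes spatial trends within an array, and probe coordinates are on hg19. The same version stands in the submitters' processing notes. The deposited scanner output gives linear intensity per spot, not scaled across arrays. A further table deposited by the authors is on a log2 scale, and how it was made is not given in the sources used here. It equalled the values computed here to within a median difference of 0.0055 or less and a largest of 0.066 on the A549 arrays, so its scale, centring and direction are those used here.

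From the processed intensity, spots marked as outliers were left out, repeat spots were averaged as log2 values, and each array was centred on its 75th percentile of gene probes (74.8 with NC1 and 74.2 with miR-891b, in signal units). Of 58201 gene probes, 50.1% were well above background with NC1 and 50.3% with miR-891b, and 0 gene spots were saturated. Each gene took the probe of highest mean signal among those well above background on both A549 arrays. Of 43317 names, 21081 were current symbols in RefSeq for GRCh38.p14 and 1567 were older symbols. Coordinates on GRCh38.p14 are given only for microRNAs and promoters. A spot lay in an area of stray signal where at least 10% of the spots within 10 rows and columns that were otherwise dim passed the background test.

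With 1 array per group, changes were called by size and no test was run. The members, the 42 gene lists, the motifs and the rules for named genes were chosen with earlier results of these data known. A gene can stand in more than 1 list. Named were members of the lists, the 15 lowest and 15 highest protein-coding genes outside stray areas, 10 lowest and 10 highest by several probes and 10 of each among the 10% of genes with the strongest signal, 6 of each seen on 1 array only, and the 10 lowest and 3 highest probes with a site. The text gives a part of these, and some members of the lists are not reported here. Steps were tested on simulated data. Python 3.11.15, numpy 2.4.6, pandas 2.3.3, R 4.3.3 and limma 3.58.1 (normexp, offset 50) were used. Alternatives covered background correction, scaling, the filter on dim probes, the choice of probe, stray areas and the threshold.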

Additional observations from a re-analysis of the deposited data

Results flagged for a closer look

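In 6 gene lists the median change of A549 was at least 0.5 from 0 and that of HCT116, over the same genes, had the opposite sign. The A549 and HCT116 medians were -1.61 and 0.12 for kinetochore genes, -1.64 and 0.061 for mitotic genes, -1.23 and 0.050 for recombination genes, 0.62 and -0.22 for ER chaperones, -0.64 and 0.11 for tubulins and -0.70 and 0.062 for nuclear pore genes. With 1 array in each group the difference was not tested, and the line coincides with the slide, so line and slide cannot be told apart. On the A549 miR-891b array 2 of 308 negative control spots, which match no human transcript, were well above background, against 0 on the NC1 array and 11 on the HCT116 miR-891b array.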

How the results depend on the processing

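Counts of genes 2-fold lower and higher moved by over 1.5 times from 1188 and 865 at these settings. They were 413 and 345 with normexp background correction and quantile normalization, 3118 and 2966 without a filter on dim probes, 3259 and 2383 at 1.5-fold and 326 and 229 at 3-fold. Among genes with mean signal above the median they were 702 and 308, and 30.5% of called genes were higher, against 42.1%. Lists with a median at least 2-fold lower numbered 7, and 3 with normexp. Seed-site probes lay below the others by a difference of -0.44, which was -0.29 with normexp, -0.22 without the dim filter and -0.54 above the median signal. With normexp the kinetochore median was -1.07, recombination -0.71, G1 -0.27, tubulins -0.35 and ribosomal proteins -0.40. Among list medians and named genes past 2-fold, the sign changed for the keratin median (0.0053 without the dim filter) and for OSMR. The OSMR change was -0.92 both by the probe highest over 4 arrays and without stray areas. The causes were not tested. Of 42 list medians, 28 kept their sign under all 10 alternatives, and 401 of 402 named genes past 2-fold kept theirs, 240 of them past 2-fold throughout. The comparison with genes of like signal and the one without cell cycle genes were chosen after seeing the data. Dim probes limit what can be seen. No paired analysis was possible because each group has 1 array.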
